A study of Mus musculus with 21 samples.

Results

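The Iroquois factors are the 6 homeobox genes Irx1, Irx2, Irx3, Irx4, Irx5 and Irx6, taken by symbol from the 24421 genes of the count table; all 6 were found and all 6 passed the filter on low counts. GATA4 peaks and peaks of open chromatin were read in each gene body and within 50 kb of it, library by library. All material came from mouse hearts at E12.5, labelled as ventricular apex for every group except the cardiomyocytes, for which only the cell type is named. RNA came from 2 libraries of endothelial cells (EC), each from 60000 GFP-positive cells sorted from Rosa26fsTrap;Tie2Cre hearts, and from 3 libraries of cardiomyocytes (CM), with no isolation method in the sources used here. GATA4 occupancy was mapped by bioChIP, a streptavidin pulldown of GATA4 biotinylated only in cells with Cre activity, in 3 Tie2-Cre libraries (endothelial lineage) and 3 Tnnt2-Cre libraries (cardiomyocyte lineage) of 15 to 20 pooled ventricles each. ATAC, which reads open chromatin, was done on 40000 sorted Rosa26fsTrap;Tie2Cre cells in each of 2 libraries. Another 6 ATAC libraries held 20000 GFP-positive cells each from embryos with Cdh5(Pac)-CreERT2 and a Rosa26mTmG reporter, 3 labelled Gata4 het and 3 labelled Gata4 ko, after 1 mg of tamoxifen was given to the mother at E9.5. The het controls carried the same Cre and tamoxifen; the Gata4 alleles are not given in the sources used here, and without RNA from these embryos the loss of Gata4 was not checked. Tie2-Cre also marks blood cells and the cushion mesenchyme that descends from endocardium. The labels do not tie replicates to litters or animals, so p-values measure only the spread between these libraries, which may be technical.

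Iroquois proteins are transcription factors of the TALE homeobox class, which also holds the Meis, Pbx and Tgif families. Mammals carry them in a pair of clusters of 3 genes, which arose by duplication. In the heart, Irx4 is known as a ventricular factor that keeps atrial genes off, Irx3 as a regulator of the ventricular conduction system, and Irx5 as a repressor of the potassium channel gene Kcnd2 across the ventricular wall. Irx1 and Irx2 are known from the ventricular septum, and Irx5 transcripts have been described in endocardium.

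In the mouse genome (mm10) the IrxA cluster lies on chromosome 13, with Irx1 (71958232 to 71963723, minus strand), Irx2 (72628978 to 72634194) and Irx4 (73260497 to 73269620). The IrxB cluster lies on chromosome 8, with Irx3 (91798511 to 91801654, minus strand), Irx5 (92357796 to 92361456) and Irx6 (92674289 to 92680956). Neighbouring members stand 313 to 665 kb apart, so that the 50 kb windows did not overlap. RefSeq promoter sequences (GRCm38.p6, the assembly of mm10) matched 3 of the 6 genes, Irx2, Irx3 and Irx4. The 250 bases upstream of the start of Irx4 and of Irx2 are shown because these neighbours in one cluster had similar RNA patterns but differed in endothelial open chromatin at the start, as described further on. Capitals mark CG dinucleotides. The first lies at chr13:73260247-73260496 and the second at chr13:72628570-72628819, both on the plus strand.
Irx4: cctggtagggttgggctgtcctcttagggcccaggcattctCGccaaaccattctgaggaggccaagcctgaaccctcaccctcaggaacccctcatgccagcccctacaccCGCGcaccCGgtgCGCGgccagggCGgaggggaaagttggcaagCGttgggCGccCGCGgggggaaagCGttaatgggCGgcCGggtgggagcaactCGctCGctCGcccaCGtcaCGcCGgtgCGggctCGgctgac
Irx2: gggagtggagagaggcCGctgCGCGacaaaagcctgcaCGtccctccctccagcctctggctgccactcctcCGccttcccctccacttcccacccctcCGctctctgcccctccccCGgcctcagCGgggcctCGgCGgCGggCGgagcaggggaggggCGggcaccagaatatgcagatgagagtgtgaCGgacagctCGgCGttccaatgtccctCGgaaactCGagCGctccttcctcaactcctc
Both were rich in CG, with 22 CG dinucleotides and 68.8% G or C for Irx4 and 19 and 68.4% for Irx2, against medians of 6 and 52.4% over all 32851 promoters of the table. Irx3 had 13 and 56.0%. The GATA motif was searched as AGATAA and as AGATAG, and with a leading T as TGATAA and as TGATAG. None of the 3 promoters held it on either strand, while 26.5% of all promoters did in the same length. The TATA box TATAAA (12.4% of all promoters), the NKX motif TCAAGTG (2.68%) and the T-box motif AGGTGTGA (1.12%) were also in none of the 3, on either strand. The RefSeq start of Irx2 lies upstream of its start in the count table.

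The first comparison asked how Iroquois RNA differed between EC and CM. The IrxA genes were 29.2- to 139-fold higher in CM, whereas the IrxB cluster was split, with Irx3 higher in CM and Irx5 and Irx6 higher in EC. Irx4 was 139-fold higher in CM and Irx6 was 9.28-fold higher in EC. Of the 6 genes, 2 were higher and 4 lower in EC (edgeR quasi-likelihood test, adjusted p under 0.05). Among all 14851 genes tested, 77.8% were called, 37.5% higher and 40.2% lower in EC, so that being called does not set the family apart. Counts came to 21682362 and 27660790 per EC library and to 42948614 to 48393473 per CM library. In a bulk sample, fewer cells of a type and less RNA per cell cannot be told apart. The sources used here do not say that EC and CM RNA were isolated and prepared alike. Differences by cell type and by preparation therefore cannot be told apart either.

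Irx4, the ventricular factor, stood at 0.709 and 0.905 CPM (read counts relative to the scaled library total) in the EC replicates 1 and 2 and at 112, 110 and 112 CPM in the CM replicates 1 to 3. The groups were far apart and the CM replicates lay close together. Its log2 fold change, EC over CM, was -7.12 (SE 0.13, adjusted p = 1.94e-11, edgeR), the 200th most negative value of all genes tested. Irx1 stood at 0.815 and 0.770 CPM in EC and at 23.6, 23.7 and 22.6 CPM in CM, which gave -4.87 on the log2 scale (SE 0.16, adjusted p = 7.73e-10, edgeR). The replicates of Irx1 agreed in both groups. Irx2 stood at 1.17 and 0.0906 CPM in EC and at 30.1, 30.8 and 26.9 CPM in CM, which gave -5.40 (SE 0.36, adjusted p = 1.68e-07, edgeR). Its EC value differed 12.9-fold between replicates, with 33 reads in replicate 1 and 2 in replicate 2. The direction did not depend on either library, but the size did: the log2 fold change was -8.30 without EC replicate 1 and -4.66 without EC replicate 2.

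Irx3, the conduction system regulator, differed less than the IrxA genes. It stood at 5.88 and 5.80 CPM in EC and at 12.3, 16.3 and 13.8 CPM in CM. The groups did not overlap, and the log2 fold change was -1.27 (SE 0.16, adjusted p = 2.50e-05, edgeR). Irx5, the repressor of Kcnd2, was abundant in both cell types, with 65.3 and 62.6 CPM in EC and 36.3, 38.2 and 31.1 CPM in CM. Each EC library exceeded each CM library, by 0.86 on the log2 scale (SE 0.10, adjusted p = 1.03e-05, edgeR). Tested against a change of at least 2-fold, Irx5 did not pass (edgeR, adjusted p = 1.00), while the other 5 did, Irx3 with an adjusted p of 0.0456. Irx6 stood at 32.7 and 29.6 CPM in EC and at 3.56, 3.84 and 2.67 CPM in CM. The EC libraries lay far above the CM libraries, by 3.21 on the log2 scale (SE 0.15, adjusted p = 9.42e-09, edgeR).

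**Figure D1:**
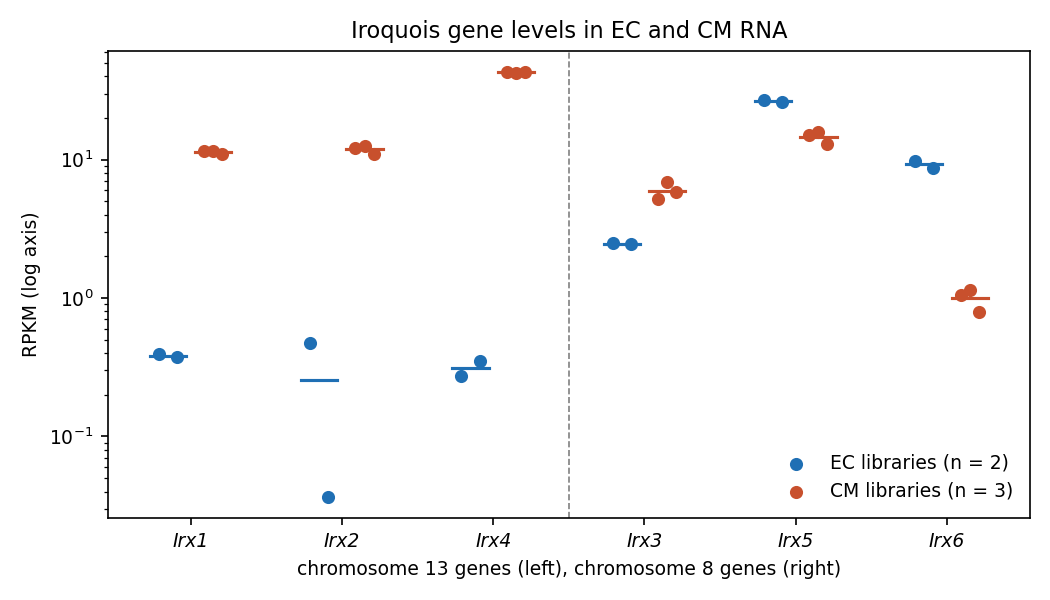
Level of each Iroquois gene (RPKM, log axis) in 2 EC libraries (blue) and 3 CM libraries (red); points are libraries and short lines are means. Irx1, Irx2 and Irx4 lie under 0.5 RPKM in EC and above 10 RPKM in CM, Irx6 shows the opposite, and Irx5 is high in both.

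Levels were compared between genes per kilobase of the deposited gene length (RPKM, on the scaled libraries). In CM, Irx4 led with a level of 42.7 ± 0.403 RPKM (SD, n = 3), followed by Irx5 at 14.6 ± 1.52, Irx2 at 11.9 ± 0.833, Irx1 at 11.3 ± 0.291, Irx3 at 5.98 ± 0.868 and Irx6 at 0.996 ± 0.181. In this order only Irx2 and Irx1 overlapped between neighbours over libraries. In EC, Irx5 led with a level of 26.6 ± 0.801 RPKM (SD, n = 2), followed by Irx6 at 9.24 ± 0.654 and Irx3 at 2.47 ± 0.0266. Irx1, Irx4 and Irx2 ended the EC order at 0.384 ± 0.0156, 0.310 ± 0.0534 and 0.256 ± 0.310 RPKM, and Irx2 overlapped both Irx4 and Irx1. Irx5 was thus the first Iroquois gene of EC and the second of CM. The 3 IrxB genes made up 97.2% and 98.0% of the summed RPKM of the family in the EC libraries and 23.2% to 26.6% in the CM libraries. That sum was 38.0 and 40.5 RPKM in EC and 84.3 to 90.2 RPKM in CM.

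**Figure D2:**
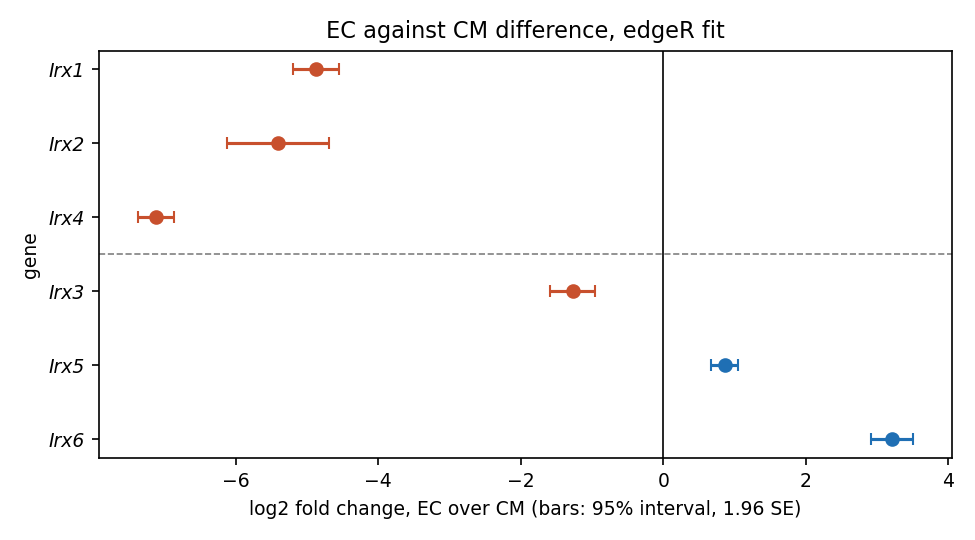
Log2 fold change, EC over CM, of the 6 Iroquois genes from the edgeR fit. Bars are approximate 95% intervals, from the standard error and a normal distribution, which is somewhat narrow for so few libraries. Chromosome 13 genes are above the dashed line and chromosome 8 genes below it. Values run from -7.12 for Irx4 to 3.21 for Irx6, and no bar crosses 0.

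Cell type markers showed how far each RNA group carried transcripts of the other. All 10 cardiomyocyte markers were lower in EC, where their level was 0.106% to 5.99% of the CM level (median 0.550%). Their summed level was 470 to 475 CPM in EC against at least 90669 CPM in CM. The EC level of Irx4 was 0.727% of its CM level, that of Irx2 2.15% and that of Irx1 3.40%, all inside the range of those markers, and that of Irx3 was 41.4%, above it. In the other direction, all 10 endothelial and endocardial markers were lower in CM, where their level was 5.58% to 25.8% of the EC level (median 15.8%). The CM level of Irx6 was 10.8% of its EC level, inside that range, and that of Irx5 was 55.0%, above it. None of these 20 markers was at 0 in either group. How much of the low-side level of Irx1, Irx2, Irx4 and Irx6 came from cells of the other type was not tested. The 10 blood and macrophage markers summed to 12.8 to 13.5 CPM in EC and to 67.1 to 108 CPM in CM. Of the 8 tested, 4 were higher in EC, among them the leukocyte genes Ptprc and Spi1, and 3 lower, among them the erythroid Alas2 and the macrophage gene Lyz2, while the globin genes Hbb-bt and Hba-a1 were at 0 in all 5 libraries. Of the 10 epicardial, fibroblast and mural markers 4 were higher and 5 lower in EC. Higher were Postn (log2 fold change 2.46), Pdgfra (2.41) and Pdgfrb (2.90), all expressed by cushion mesenchyme, and Tcf21 (1.34). Lower were Tbx18 (-2.79), Cspg4 (-2.73), Aldh1a2 (-2.30), Upk3b (-1.50) and Wt1 (-1.19).

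Genes known to work with or under Iroquois factors in the heart were mostly lower in EC. Of 22 such genes 14 were lower and 6 higher in EC, while of all genes tested 40.2% were lower and 37.5% higher. The median log2 difference was -2.45, against -0.06 over all genes tested. Lower were Smyd1, a muscle chromatin factor that acts with Irx5 on Kcnd2 (-5.78), Nkx2-5 (-5.79), Bmp10 (-5.75) and Nppa, a trabecular natriuretic peptide gene (-6.70). Kcnd2, named here because it is the known target of Irx5, was lower as well (-7.23). Higher were Gata3 (5.41), Tbx3 (1.86), Gata4 (1.72) and Gata6 (1.56). Of 12 other TALE homeobox genes 7 were higher and 1 lower, with a median of 0.79. Among them Pknox2 was higher by 2.74, Tgif1 by 2.45 and Meis2 by 1.26, all on the log2 scale, and Meis1 was the lower one (-0.90). All 10 ventricular chamber genes were lower in EC (median -5.95), Irx4 among them. Of the atrial genes 6 were lower and 3 higher of 9 tested (median -1.13). Of the conduction genes 5 were lower and 4 higher of 11 tested, with a median of -0.0058, near that of all genes tested. Nr2f2, an atrial and venous factor (3.30), and Id2, a conduction system factor (2.28), had the smallest adjusted p among the higher ones of these lists.

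The genes with the most similar profiles were found by the distance between log2 CPM values, centred per gene, over the 5 RNA libraries. Irx4 lay closest to Tnnc1, cardiac troponin C (distance 0.067), and to Slc8a1, the sodium-calcium exchanger (0.132). Irx6 lay closest to the transcription factor gene Ebf1 (0.071) and the collagen gene Col26a1 (0.117), which were higher in EC by 3.04 and 3.02 on the log2 scale. Irx5 lay closest to Lrp1 (0.0973), a lipoprotein receptor gene, and Fsd1 (0.102), and Irx1 to Phactr3 (0.146) and Ppp1r3c (0.165). Irx2 had no near match, with Hist1h3c at 0.50 and Lrrc10 at 0.608. The genes nearest to Irx3, Gm19689 (0.0847) and Maneal (0.130), had 0 reads in EC and 0.598 and 0.622 CPM in CM, so this likeness rests on the 0.5 CPM added before taking logs. With 5 libraries in 2 groups, such distances mostly read the size of the group difference and the order of replicates within it.

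Genes beside the clusters were read as a group within 500 kb of a member. Around IrxA, 8 of 14 neighbours were tested, of which 5 were lower and 1 higher in EC. Gm20554, which starts 414 bp from Irx2 on the opposite strand, was lower (log2 fold change -3.30), and D630045M09Rik, 75045 bp beyond Irx4, was lower by a value of -7.73, close to that of Irx4. The counts were stranded per the file headers. Around IrxB, 6 of 11 were tested, of which 4 were higher in EC and the other 2, Rpgrip1l and Crnde, were not called. Of all genes tested 77.8% were called, 40.2% lower and 37.5% higher in EC, so being called does not set the neighbours apart. Mmp2, a matrix protease gene 146372 bp beyond Irx6, was higher by 3.41, and Fto, 130078 bp from Irx3, by 1.46. Crnde, which starts 1676 bp from Irx5 on the other strand, averaged 3.65 CPM in EC and 3.91 CPM in CM, a difference of -0.09 on the log2 scale (SE 0.21, adjusted p = 0.695, edgeR). Irx5 thus differed between the cell types where its divergent neighbour passed no test, and whether those changes differ was not tested.

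The next question was where GATA4 sat around these genes in each lineage. GATA4 peaks were most frequent at Irx4 in the cardiomyocyte lineage, sparse at Irx3, Irx5 and Irx6, and absent from the windows of Irx1 and Irx2 in all 6 libraries. The GATA4 lists held 2734 to 30447 peaks, and replicate 2 was the shortest in each lineage (2734 and 3603 peaks), so a missing peak there says little. Each Tnnt2-Cre list was longer than the Tie2-Cre list of the same number (22814, 3603 and 30447 peaks against 17682, 2734 and 25936). At Irx4 the Tie2-Cre replicates 1 to 3 had 0, 0 and 1 peaks and the Tnnt2-Cre replicates 6, 2 and 7. The lineages did not overlap (exact permutation test over 6 libraries, two-sided p = 0.1, the smallest this design allows, 0.3 after adjustment over the 6 genes). At Irx5 the numbers were 1, 0 and 1 in Tie2-Cre and 2, 2 and 3 in Tnnt2-Cre libraries, again without overlap and with the same exact p of 0.1 and adjusted p of 0.3. Over all 24263 genes with a position, 0.824% had more peaks in each Tnnt2-Cre library than in any Tie2-Cre library, and 0.449% the reverse, so 2 of 6 members stood in the first class and 0 in the second. The separation at Irx5 was lost within 20 kb (difference -0.33 peaks per library, exact permutation p = 1), within 100 kb (-1.33, p = 0.6) and with a −log10 q of at least 5 (-1, p = 0.3). At Irx4 the exact p stayed at 0.1 under these same settings. With any 1 Tie2-Cre library left out, the exact permutation p was 0.2 at Irx4 and 0.1 at Irx5. With equal list lengths it was 0.1 at both. Irx3 had 0, 0 and 1 peaks against 2, 0 and 3 (exact permutation p = 0.4), and Irx6 had 1, 0 and 1 in both lineages (exact permutation p = 1). With each list cut to its 2734 strongest peaks, 0 of the 6 genes kept a Tie2-Cre peak, while Irx4 kept a mean of 2 and Irx5 of 1.33 peaks per Tnnt2-Cre library.

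**Figure D3:**
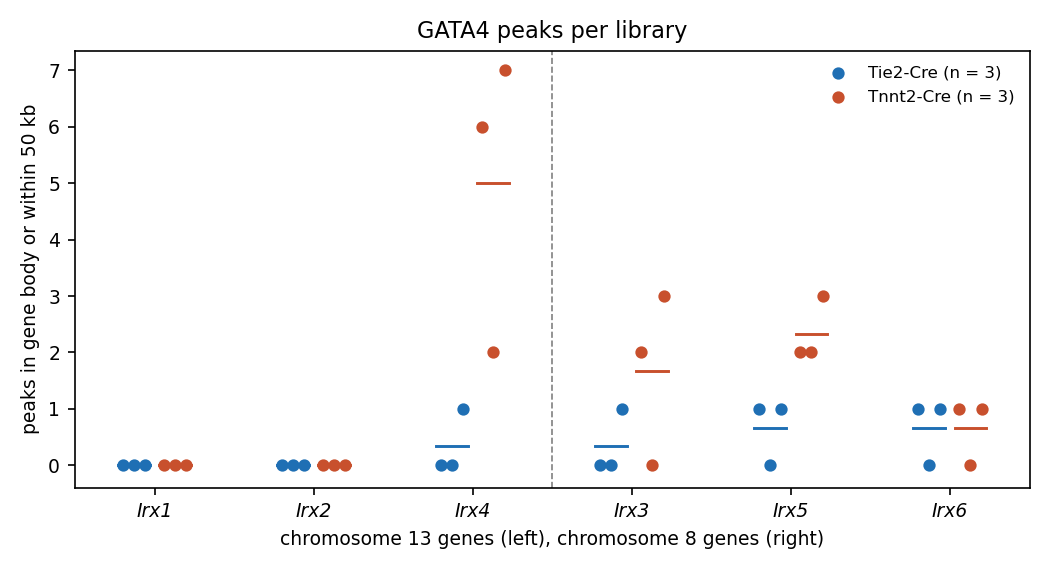
Number of GATA4 peaks in each gene body or within 50 kb, per library, for 3 Tie2-Cre (blue) and 3 Tnnt2-Cre (red) libraries; points are libraries and short lines are means. Irx4 reaches 7 peaks in a Tnnt2-Cre library, whereas Irx1 and Irx2 stay at 0 in all 6.

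Merging peaks that share at least 1 bp gave 15 GATA4 regions in the 6 windows, all between genes and none over a gene start. At 12 of them 2 or more libraries of one lineage had a peak, 11 in Tnnt2-Cre and 2 in Tie2-Cre, with 1 counted in both. Called by presence in at least 2 libraries of a lineage and none of the other, 8 of the 15 were Tnnt2-Cre-selective and 1 was Tie2-Cre-selective, against 18.2% and 12.2% of all 49798 regions. Another was shared, with peaks in 2 or more libraries of both lineages, against 13.1% of all. All 7 regions at Irx4 lay beyond the end of the gene. The strongest of them (chromosome 13, 73298584 to 73299277, 38434 bp from the start) had a peak in all 3 Tnnt2-Cre libraries and in Tie2-Cre replicate 3. By the fold over background that the authors' peak caller gave, its peak ranked above 99.9% of peaks in Tnnt2-Cre replicates 1 and 3 and above 99.2% in replicate 2, but above 69.5% in Tie2-Cre replicate 3. Another Irx4 region (73277236 to 73277682, 16962 bp from the start) had a peak in 3 of 3 Tnnt2-Cre libraries and no Tie2-Cre library. The remaining selective regions of Irx4, at 73270813 to 73271114, 73282458 to 73282757, 73291230 to 73291438 and 73304604 to 73305180, had peaks in Tnnt2-Cre replicates 1 and 3. Peaks at the first of these ranked above only 0.2% and 1.6% of their lists, and at the last above 66.5% and 81.4%.

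At Irx5 both regions found in 2 or more libraries of one lineage lay upstream, and the remaining region, in Tnnt2-Cre replicate 3 alone, lay 4525 bp downstream of the start. A Tnnt2-Cre-selective region (chromosome 8, 92323651 to 92324310, 33816 bp from the start) had a peak in 3 of 3 libraries, ranking above 98.6%, 90.6% and 99.2% of peaks in replicates 1 to 3. A shared region 45332 bp upstream (92312159 to 92312770) had peaks in 2 Tie2-Cre and 3 Tnnt2-Cre libraries. Irx6, the gene highest in EC relative to CM, had the only Tie2-Cre-selective region of the 15 (92703320 to 92703608, 29175 bp from the start, in 2 libraries), and a Tnnt2-Cre-selective one at 92722735 to 92723157. Peaks at the former ranked above only 18.7% and 54.0% of their lists (Tie2-Cre replicates 1 and 3). Those at the latter ranked above 29.9% and 30.0% (Tnnt2-Cre replicates 1 and 3). With a −log10 q of at least 5, the Tie2-Cre mean at Irx6 fell from 0.667 to 0.333 peaks per library. At Irx3 a Tnnt2-Cre-selective region (91750631 to 91750923) lay near the edge of the window, and another (91765496 to 91765959) had peaks in 1 Tie2-Cre and 2 Tnnt2-Cre libraries. For Irx1 and Irx2 the nearest region found in 2 or more libraries of one lineage was Tnnt2-Cre-selective, at 59.7 kb and 131 kb from the start. The members with the greatest CM excess therefore differed in GATA4 peaks nearby: Irx4 had them and Irx1 and Irx2 had none within 50 kb.

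**Figure D4:**
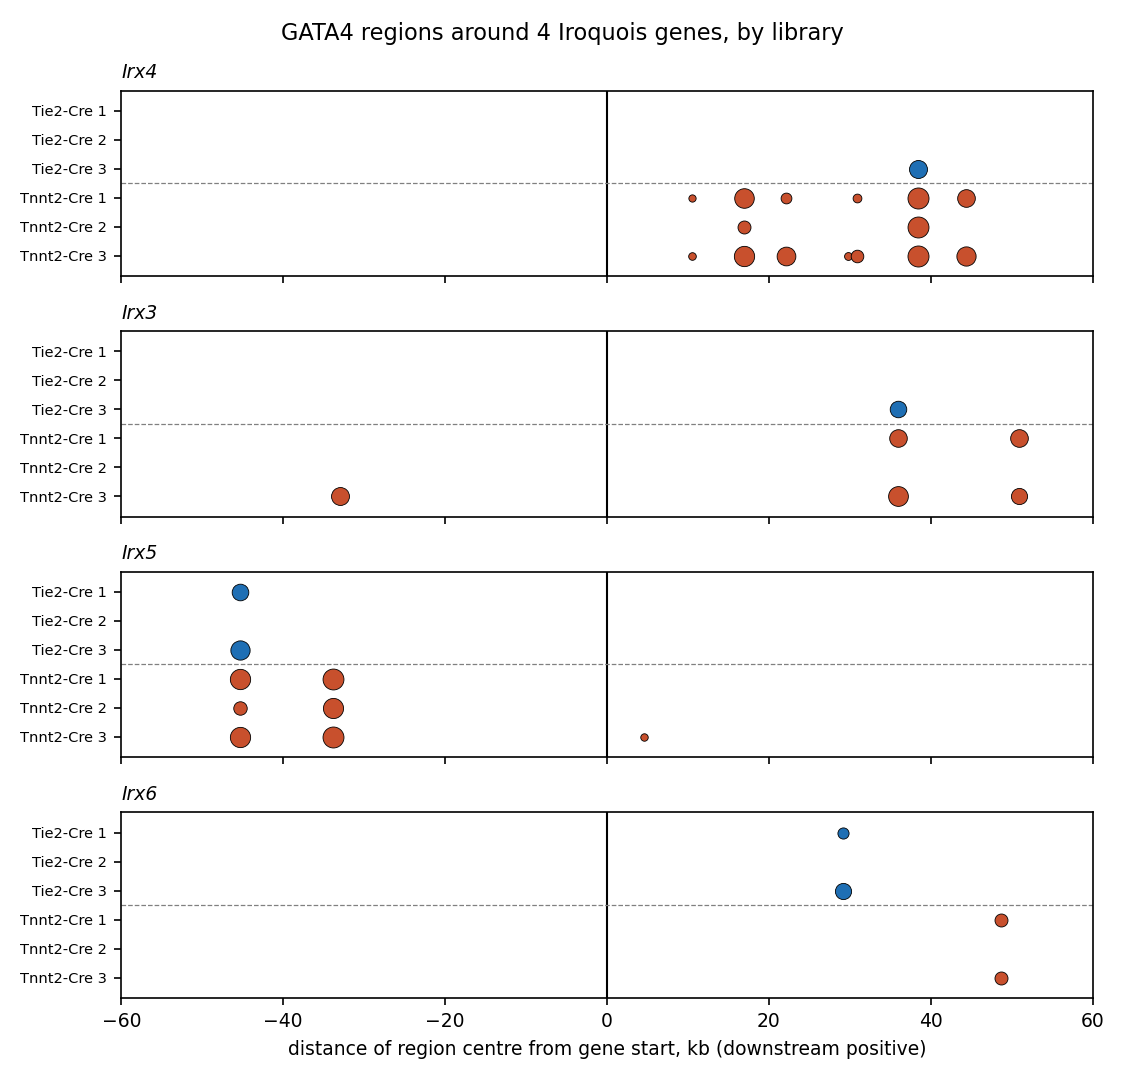
Centres of GATA4 regions relative to the gene start (kb, downstream positive) for Irx4, Irx3, Irx5 and Irx6, with 1 row per library; a dot marks a peak in that library, and larger dots are peaks of higher rank by fold within their own list. Irx4 regions lie 10466 to 44395 bp downstream and are almost all in Tnnt2-Cre rows.

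Open chromatin was then read in EC. After peaks of all 8 EC ATAC libraries were merged, the start of 5 of the 6 genes lay in a region to which each library gave a peak, also for the CM-high genes Irx1, Irx2 and Irx3, while the start of Irx4 lay in no ATAC region of any library. Over all genes, 54.3% of starts lay in such a region and 36.8% in none. Taken library by library, a peak covered the start itself in 8 of 8 libraries for Irx3 and Irx5 and in 7 for Irx2, all but ko replicate 4. For Irx6 it did so in 3, both Tie2-Cre EC libraries and ko replicate 2, and for Irx1 in the 2 Tie2-Cre EC libraries alone, where peaks were wider. The nearest ATAC region to the Irx4 start was intronic (chromosome 13, 73263218 to 73264282), with a peak in 7 of 8 libraries, all but het replicate 4. The Irx2 sequence printed above lies inside its merged open region (72627279 to 72629598), and the Irx4 sequence lies inside none. The region over the Irx5 start (chromosome 8, 92354453 to 92358711) was 4259 bp wide when merged and also held the start of Crnde. Irx5, the most abundant Iroquois transcript of EC, had the most open bases in the Tie2-Cre ATAC lists, 12735 and 12225 bp in its window, against 3804 to 7451 bp for the other genes. In the Cdh5-CreERT2 het lists Irx5 had 1811 to 2584 bp, and no such excess over the other genes. The Tie2-Cre lists were longer (114599 and 130708 peaks against 55733 to 90326) with wider peaks, from another reporter, cell number and dissociation kit, so the levels are not set against each other in a test.

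Of those 12 GATA4 regions found in 2 or more libraries of one lineage, 4 overlapped a peak in both Tie2-Cre EC ATAC lists, against 73.5% of all 26400 such GATA4 regions. Both regions found in at least 2 Tie2-Cre GATA4 libraries, at Irx5 (shared) and Irx6 (Tie2-Cre-selective), were open in EC, as were 94.0% of all shared and 88.3% of all Tie2-Cre-selective regions. Of the 8 Tnnt2-Cre-selective regions 1 was open in EC, the one 33816 bp upstream of Irx5, against 41.3% of all Tnnt2-Cre-selective regions. At Irx4, 5 of 6 such regions were in neither Tie2-Cre EC list, and the exception was the strongest one, which had an ATAC peak in all 8 EC libraries. Cardiomyocyte open chromatin was not analysed here.

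The last comparison asked whether loss of Gata4 in EC changed open chromatin at these genes. No member had more peaks in each het library than in any ko library or the reverse, against 1.67% and 0.268% of all genes. Irx6, for example, had 7, 7 and 6 ATAC peaks in het replicates 2, 3 and 4 and 7, 6 and 6 in ko (exact permutation p = 1). Irx5 had 4, 4 and 3 in het and 6, 4 and 3 in ko (exact permutation p = 0.9). Irx4 had 5, 4 and 2 in het and 4, 4 and 4 in ko, and Irx3 had 4, 3 and 3 and 3, 2 and 5 (exact permutation p = 1 for both). Irx1 had 3, 3 and 3 in het and 3, 2 and 3 in ko, and Irx2 had 5, 3 and 3 and 3, 4 and 4 (exact permutation p = 1 for both). Summed over the 6 genes, the het libraries had 28, 24 and 20 peaks and the ko libraries 26, 22 and 25, so the groups overlapped widely. With 3 libraries against 3 the exact test cannot go below 0.1, and peak number does not measure how open a region is. Among 54 merged ATAC regions at the 6 genes, 16 were shared, against 34.3% of all 165115 regions, 0 were het-selective and 1 was ko-selective, against 2.2% and 1.23%. That region (chromosome 13, 73271720 to 73272231) lay 11478 bp downstream of the Irx4 start, with peaks in ko replicates 2 and 3 and in both Tie2-Cre EC libraries. The Tie2-Cre-selective GATA4 region of Irx6 lay in an ATAC region with a peak in 3 het and 2 ko libraries.

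**Figure D5:**
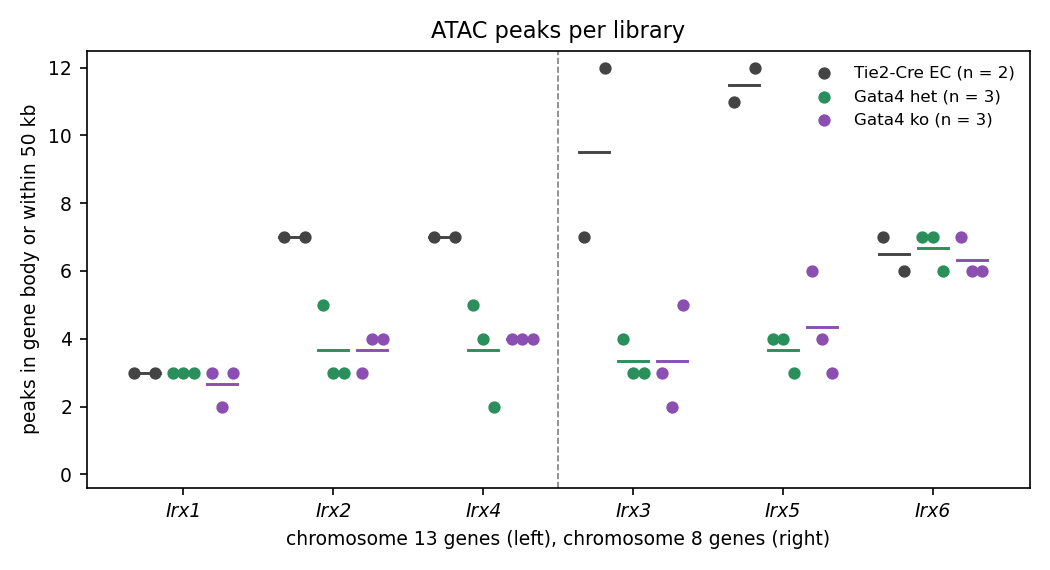
Number of ATAC peaks in each gene body or within 50 kb, per library, for 2 Tie2-Cre EC (dark grey), 3 Gata4 het (green) and 3 Gata4 ko (purple) libraries; points are libraries and short lines are means. Het and ko overlap at all 6 genes, and Tie2-Cre EC libraries reach 12 peaks at Irx3 and at Irx5.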

How the data were processed

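The authors deposited raw counts for RNA, assigned to genes with featureCounts 1.6.3 on mm10 genes with forward-strand counting, per the file headers. Peak calls came separately for each library, with MACS2 in the names of the GATA4, het and ko peaks. Each peak carried a fold over background (a ratio) and −log10 p and −log10 q values, as the authors deposited them; use of an input control is not stated in the sources used here. The submitters' processing notes also name STAR 2.7.3a, Bowtie 1.1.1, Bowtie2 2.2.9 and MACS2 2.2.4.

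Counts were fitted over all 14851 genes that passed filterByExpr in R 4.3.3 with edgeR 4.0.16 (TMM, quasi-likelihood F test, Benjamini-Hochberg, threshold 0.05); DESeq2 1.42.0 was an alternative. Each standard error was obtained from its log2 fold change and F statistic. No 2 libraries of a group were near-identical (chi-square over its degrees of freedom, 7.84 to 33.9). In simulations of this EC to CM comparison (14851 genes, 200 altered), recovery was 62.2% at 1.5-fold, 77.1% at 2-fold and 93.4% at 4-fold, and false calls averaged 5.33. In the data 77.8% of genes were called, far more than were altered in the simulations, so these rates need not hold for the real comparison.

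Peaks were handled in Python 3.11.15 with pandas 2.3.3. Gene bodies run between the outermost exon ends of the count table; genes on several chromosomes or strands, or spanning over 3 Mb, were left out. Coordinates are mm10, counted from 1. Members, lists and the rule for named genes (all members, those of each list with the smallest adjusted p or against its majority, near neighbours and the nearest profiles) were chosen with earlier results of these data known. Fewer list members than that rule allows are named, and some are not reported here. GATA4 regions could not be read as sequence here.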

Additional observations from a re-analysis of the deposited data

How the results depend on the processing

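All 6 genes kept their direction and stayed called under DESeq2, DESeq2 size factors, scaling by library size, no count filter, a replicate block and omission of any 1 library (6 of 6 called in each). Where 1 EC library remained, it was assumed to vary like the CM libraries. Replicate 3 existed in CM only, so the RNA fit with the replicate block did not use it for the group difference. That fit is therefore no separate check from omission of CM replicate 3 (Irx6 3.07 and 3.08 on the log2 scale). The test against 2-fold called 5, without Irx5 (0.86 on the log2 scale), and over all genes it called 2569 higher and 2675 lower in EC, against 5575 and 5972 without that bound. The sum of GATA4 peaks over the 6 genes, Tie2-Cre minus Tnnt2-Cre, was -7.67 per library. It was -2.67 within 20 kb, -3.33 with equal list lengths and -20 over the whole clusters, an alternative chosen after seeing the data, as these count fewer or more peaks; with a library left out it ranged from -10.5 to -5.5. The same ATAC sum, het minus ko, was -0.33. It turned to 1 within 20 kb and to 5 over the whole clusters, and ranged from -2.33 to 1.67 with a library left out (1.67 without het replicate 4, 0.5 without ko replicate 2). By gene, the ATAC difference turned at Irx4 to 0.5 without het replicate 4 (-1 to 0.5 with a library left out), at Irx5 to 0.667 with equal list lengths and 0.167 without ko replicate 2 (-1.33 to 0.167 with a library left out), and at Irx6 to -0.333 with a −log10 q of at least 5, -1 with equal lengths and -0.0395 per 10000 peaks; the cause was not tested. At 100 kb the Irx6 GATA4 difference moved from 0 to 2.67. The labels do not say whether shared replicate numbers pair the samples. Deviations of samples with the same number correlated at -0.345 to -0.00295 for GATA4 and at -0.00896 and -0.00447 for RNA. For ATAC they correlated at 0.0361 to 0.174, where each library correlated best with its own number, so pairing there was not excluded. The GATA4 list of replicate 2 was the shortest in both lineages. With the replicate block 5248 genes were higher and 5729 lower in EC, and the peak differences of -7.67 and -0.33 stay as they are by construction. Short GATA4 lists limit what a missing peak can show.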

Other observations

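Between the members, beyond the 50 kb windows, the clusters differed in GATA4 peaks; these whole-cluster spans were chosen after seeing the data. Over the IrxA span (1411 kb, 71908232 to 73319620 on chromosome 13) the Tie2-Cre replicates 1 to 3 had 4, 1 and 4 GATA4 peaks and the Tnnt2-Cre replicates 23, 9 and 31, with no overlap. How often other spans of this length separate the lineages was not computed. Of its 34 merged regions 17 were Tnnt2-Cre-selective, 1 was Tie2-Cre-selective and 2 were shared, against 18.2%, 12.2% and 13.1% of all 49798 regions. Of the 17, 9 lay closer to the start of Irx1 or Irx2 than to that of Irx4. Over the IrxB span (982 kb, 91748511 to 92730956 on chromosome 8) the lineages overlapped, with 11, 1 and 11 peaks in Tie2-Cre and 10, 4 and 15 in Tnnt2-Cre libraries. Its 22 regions held 5 Tie2-Cre-selective, 5 Tnnt2-Cre-selective and 3 shared ones, to be read beside the same shares of all regions.

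Just outside the Irx6 window, 3 Tie2-Cre-selective regions lay 63.5 to 71.1 kb upstream of the start (92602965 to 92603325, 92609672 to 92610274 and 92610692 to 92610909), all open in both Tie2-Cre EC libraries. Within 100 kb Irx6 had 6, 1 and 4 GATA4 peaks in Tie2-Cre and 1, 0 and 2 in Tnnt2-Cre libraries, which overlap (exact permutation p = 0.3).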
